A study of Mus musculus with 12 samples.

Results

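Tumours given an antibody against PD1 were compared with tumours given vehicle, by RNA-seq counts per gene. The comparison held 3 anti-PD1 and 3 vehicle tumours, 6 of the 12 in the series, chosen by their treatment labels, and covered all genes with enough reads. Every tumour was grown from Sq-1979, a mouse head and neck squamous carcinoma line, mixed with Matrigel and placed under the skin of the back of male C3H/HeN mice aged 6 weeks, so all groups share 1 cell line, 1 host strain and an intact immune system. The anti-PD1 group received a rat antibody and the vehicle group the vehicle control. The other 6 tumours received SN-38, a topoisomerase I inhibitor formed from irinotecan in the body, alone (3 tumours) or with the antibody (3 tumours), and serve here as a second setting for the antibody. No dose, schedule or time of collection is given in the sources used here. It is also not stated that every tumour came from its own mouse, so the spread behind each p-value is that between these samples and may be partly technical.

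The libraries fitted their tissue label. Krt5 and Krt14, the keratin pair of basal squamous cells, were present at 6682, 7855 and 6583 CPM with vehicle and 5305, 6652 and 5637 CPM with anti-PD1 and 4530.5, 5589 and 5235 CPM with vehicle and 3654, 5176 and 4094 CPM with anti-PD1, and Trp63, the transcription factor that maintains this layer, at 496, 423 and 434 CPM with vehicle and 460.4, 527 and 453 CPM with anti-PD1, each in the order of tumours 1 to 3. CPM are counts scaled to a common library size. Krt1, a keratin of differentiated epidermis, had too few reads to be tested. Total counts of the 6 tumours ran from 23387238 to 28044825, and 16833 genes were tested in each.

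PD1, encoded by Pdcd1, is an inhibitory receptor that T cells display after activation. Its ligands PD-L1 and PD-L2, encoded by Cd274 and Pdcd1lg2, appear on tumour and myeloid cells, and PD-L1 is induced by interferon-gamma, which activated T cells and NK cells secrete. Blocking the receptor releases T-cell killing and cytokine production, and interferon-gamma in turn raises antigen presentation and chemokines, in part through the transcription factor Irf1. These relations are background, against which the genes below are ordered.

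No gene passed an adjusted p of 0.05 in edgeR's quasi-likelihood test, 0% of 16833, and the smallest adjusted p was 0.7025, for Cblb. At an unadjusted p below 0.05 there were 622 genes with a higher mean in the antibody group (3.7% of those tested) and 321 with a lower one (1.91%). In 1345 genes (7.99%) every anti-PD1 tumour lay above every vehicle tumour, and in 1549 (9.2%) every one lay below. Taken singly, anti-PD1 tumours 1 to 3 lay above all vehicle tumours in 6112, 4824 and 5274 of the 16833 genes. They lay below all of them in 6081, 4769 and 5453. These are the backgrounds for the counts in single tumours below. Of all genes, 51.6% had a log2 difference above 0 and 48.4% one below 0. limma voom called 0 genes, and DESeq2 called 26 higher (0.324% of the 8021 genes it gave an adjusted p) and 2 lower (0.0249%). The values that follow therefore describe these 6 tumours. Log2 differences of single genes are printed with a standard error (SE), derived as the size of the difference over the square root of edgeR's F statistic. List medians and values from alternative fits are printed without one.

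**Figure D1:**
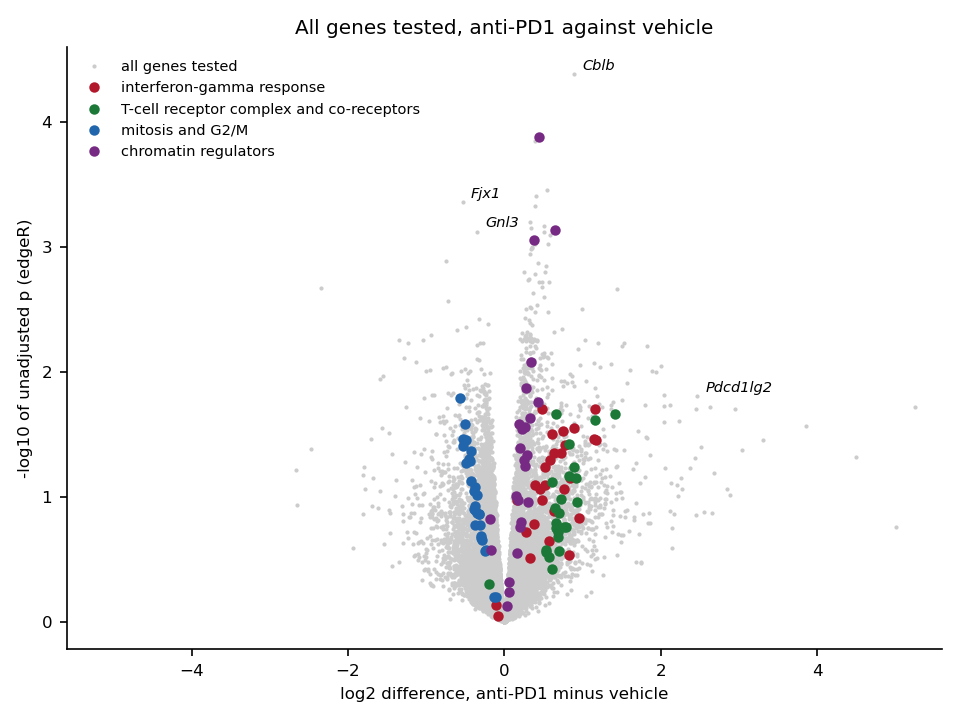
Log2 difference (anti-PD1 minus vehicle) against -log10 of the unadjusted edgeR p for the 16833 genes tested, with 4 gene lists in colour. Interferon-gamma and T-cell genes lie to the right at moderate p, chromatin regulators to the right at smaller differences, and mitotic genes to the left, while the top point, Cblb, has an adjusted p of 0.7025.

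The receptor and its ligands had higher means with the antibody, mainly through anti-PD1 tumours 1 and 3. Pdcd1 was counted at 6.76, 5.91 and 4.55 CPM with vehicle and 13.6, 6.22 and 16.6 CPM with anti-PD1, so tumours 1 and 3 lay above all vehicle tumours and tumour 2 within their range (log2 difference 1.08 ± 0.46 SE). Cd274, on chromosome 19 (GRCm38, 29367455 to 29388095), showed 90.1, 71.2 and 45.5 CPM with vehicle and 226, 77.4 and 162 CPM with anti-PD1, with the same tumour inside the vehicle range (log2 difference 1.17 ± 0.48 SE). Pdcd1lg2, its neighbour on the chromosome at 29410919 to 29471161, was scarce, at 0.839, 0.923 and 0.694 CPM with vehicle and 3.65, 1.15 and 8.85 CPM with anti-PD1, and its groups did not overlap (log2 difference 2.47 ± 0.86 SE). Per kilobase of exon, the antibody group means were 42.8 RPKM for Cd274 and 2.32 RPKM for Pdcd1lg2, so PD-L1 transcripts were the more abundant ligand. Among 18 inhibitory receptors and ligands, 16 had higher means, and the median log2 difference was 0.50 against 0.01 over all genes, and 0 of 18 passed the adjusted test. Tigit, a receptor of exhausted and regulatory T cells, measured 4.79, 3.88 and 3.82 CPM with vehicle and 7.34, 5.14 and 13 CPM with anti-PD1 without overlap. Lag3, a receptor for MHC class II, measured 19.9, 14.9 and 15.3 CPM with vehicle and 20.8, 14.1 and 46.5 CPM with anti-PD1, and Havcr2, which encodes TIM-3, 19, 16.2 and 14.9 CPM with vehicle and 19.3, 16.4 and 34.2 CPM with anti-PD1. For Lag3 and Havcr2 tumour 1 was less than 1 CPM above the highest vehicle tumour, and tumour 3 lay far above it. Without anti-PD1 tumour 3 the list median was 0.17.

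Interferon-gamma response genes had higher means in 26 of the 28 tested. The median log2 difference was 0.60, and 10 members had an unadjusted p below 0.05, all of them higher, against 3.7% of all genes. None of the 28 had groups without overlap, since in anti-PD1 tumours 1, 2 and 3 the number of members above all vehicle tumours was 25, 0 and 28. Over all 16833 genes these numbers were 6112, 4824 and 5274. By the rule for named genes the leading members were Nlrc5, Gbp2b, Gbp2 and Igtp. The promoters of the last 3 are shown because interferon-gamma acts through short promoter sites, the interferon-gamma activated site (TTCNNNGAA) and the interferon response element (GAAANNGAA). They are the 250 bases upstream of the RefSeq start on GRCm38.p6, plus strand, with any match on either strand in capitals.
Gbp2b, chr3:142594597-142594846: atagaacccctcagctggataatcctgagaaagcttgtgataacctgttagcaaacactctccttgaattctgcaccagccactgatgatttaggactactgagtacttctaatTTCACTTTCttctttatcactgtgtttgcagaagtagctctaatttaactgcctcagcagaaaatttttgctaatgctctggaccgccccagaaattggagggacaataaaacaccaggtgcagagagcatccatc
Gbp2, chr3:142620413-142620662: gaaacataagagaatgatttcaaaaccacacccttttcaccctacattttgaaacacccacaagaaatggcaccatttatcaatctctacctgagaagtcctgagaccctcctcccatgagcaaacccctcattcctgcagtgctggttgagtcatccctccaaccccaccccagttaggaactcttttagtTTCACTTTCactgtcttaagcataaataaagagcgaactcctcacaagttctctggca
Igtp, chr11:58199306-58199555: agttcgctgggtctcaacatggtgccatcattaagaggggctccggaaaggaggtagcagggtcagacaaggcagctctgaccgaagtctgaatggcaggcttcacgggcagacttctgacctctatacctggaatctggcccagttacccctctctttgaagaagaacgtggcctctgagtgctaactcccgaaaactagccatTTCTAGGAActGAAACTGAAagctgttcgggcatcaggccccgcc
Gbp2b and Gbp2 each hold 1 GAAANNGAA match, on the opposite strand, and no TTCNNNGAA match in this window. Igtp holds 1 match of each motif, and the pair starts 45 and 34 bases before the start of transcription. Among 32851 RefSeq promoters of the same length, 7.02% hold TTCNNNGAA and 7.13% hold GAAANNGAA on either strand. Of the 20 list members with a promoter in this set, 10 hold the first and 12 the second in at least 1 promoter. Genes with several promoters have more places for a match, so these counts and the shares per promoter are unlike measures. A match is a string of letters and not a measured binding site.

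Gbp2b, a guanylate-binding GTPase of cell-autonomous defence, measured 473, 375 and 274 CPM with vehicle and 1217, 434 and 849 CPM with anti-PD1 (log2 difference 1.16 ± 0.42 SE). Gbp2 of the same family measured 590.5, 509 and 344 CPM with vehicle and 1186, 539.9 and 960.0 CPM with anti-PD1 (log2 difference 0.90 ± 0.35 SE). Igtp, an immunity-related GTPase, measured 428, 358 and 249 CPM with vehicle and 751, 366 and 631 CPM with anti-PD1 (log2 difference 0.76 ± 0.30 SE). In each of these 3 genes tumours 1 and 3 were above all vehicle tumours, and tumour 2 lay between the lowest and the highest of them. The guanylate-binding genes are close copies of each other, so the division of reads between them is uncertain. Irf1, a transcription factor induced early in the response, measured 307, 304 and 237 CPM with vehicle and 433, 298 and 429 CPM with anti-PD1 (log2 difference 0.45 ± 0.24 SE). Ido1, a tryptophan-degrading enzyme, was scarce at 2.94, 0.517 and 0.733 CPM with vehicle and 2.5, 1.23 and 3.63 CPM with anti-PD1, with overlapping groups.

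The cytokine itself was near the limit of detection. Ifng measured 0.63, 0.591 and 0.424 CPM with vehicle and 0.934, 0.576 and 1.73 CPM with anti-PD1, highest in tumour 3 (log2 difference 0.98 ± 0.49 SE). Among the 17 interferon, interleukin and receptor genes tested, 14 had higher means, with a median of 0.26, and 0.13 without anti-PD1 tumour 3. The receptor kinases differed by little and without overlap. Jak1 measured 201, 197 and 193 CPM with vehicle and 214, 217 and 241 CPM with anti-PD1 and Tyk2 53.7, 51.2 and 49.7 CPM with vehicle and 62.2, 55.7 and 67.7 CPM with anti-PD1 (log2 differences 0.18 ± 0.09 and 0.26 ± 0.09 SE). Il15, a growth factor for CD8 T cells and NK cells, measured 16.3, 16.1 and 12.1 CPM with vehicle and 24.4, 15.2 and 23.4 CPM with anti-PD1 and was above the vehicle range in tumours 1 and 3.

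Type I interferon response genes differed less. Of 36 genes, 30 had higher means, but the median was 0.12, and 0.01 without anti-PD1 tumour 3 and 0.25 without anti-PD1 tumour 2. The number above all vehicle tumours was 23, 1 and 35 in anti-PD1 tumours 1 to 3, and 28 of 36 were below all vehicle tumours in tumour 2. Ifi203, a nuclear DNA-binding protein, measured 208, 176 and 184 CPM with vehicle and 259.9, 196 and 259 CPM with anti-PD1, and Oas3, a sensor of double-stranded RNA, 152, 134 and 125 CPM with vehicle and 204, 129 and 203 CPM with anti-PD1. For these 2 genes tumour 2 was inside the vehicle range, unlike for most of the list. Of the interferon-gamma genes, 3 of 28 were below all vehicle tumours in tumour 2.

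T-cell genes were high in the same pair of tumours. Of 24 genes of the receptor complex and co-receptors, 23 had higher means (median 0.69), and the members above all vehicle tumours numbered 20, 2 and 24 in tumours 1 to 3. Cd3e, a signalling chain of the receptor, measured 8.1, 6.75 and 5.94 CPM with vehicle and 9.59, 6.83 and 16 CPM with anti-PD1. Cd8a, the co-receptor of cytotoxic T cells, measured 15.8, 15.6 and 13.3 CPM with vehicle and 24.8, 15.4 and 30.2 CPM with anti-PD1 (log2 difference 0.66 ± 0.25 SE). Cd4, the helper co-receptor, measured 26.4, 20.7 and 21.3 CPM with vehicle and 22.2, 19.5 and 62.2 CPM with anti-PD1, which set tumour 3 apart and left tumour 1 in the vehicle range. Cd3d had groups that narrowly did not overlap, at 4.62, 3.03 and 3.09 CPM with vehicle and 7.39, 4.64 and 12 CPM with anti-PD1 (log2 difference 1.16 ± 0.44 SE). Without anti-PD1 tumour 3 the list median was 0.28. In bulk tumour RNA, more cells of a type and more RNA per cell cannot be told apart, here and in every cell-type list below.

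Among T-cell transcription factors 18 of 22 had higher means (median 0.37, and 0.12 without anti-PD1 tumour 3). Tox, which programs exhausted T cells, measured 1.47, 1.92 and 1.23 CPM with vehicle and 3.18, 1.8 and 6.15 CPM with anti-PD1 (log2 difference 1.27 ± 0.50 SE), and its relative Tox2 0.462, 0.295 and 0.617 CPM with vehicle and 1.15, 0.537 and 1.87 CPM with anti-PD1. Eomes, a driver of cytotoxic and memory fates, measured 1.39, 1.14 and 1.27 CPM with vehicle and 2.29, 1.04 and 3.42 CPM with anti-PD1. Ikzf3, an Ikaros family factor of lymphocytes, had groups without overlap, at 5.71, 5.68 and 4.67 CPM with vehicle and 10.4, 6.56 and 13.8 CPM with anti-PD1. Costimulatory genes had higher means in 12 of 16 cases, and their median was 0.60, 0.05 without anti-PD1 tumour 3 and 0.93 without tumour 2. Tnfrsf9, which encodes the activation receptor 4-1BB, measured 7.89, 7.09 and 4.17 CPM with vehicle and 14.5, 6.98 and 21 CPM with anti-PD1. Cd226, an activating receptor that competes with Tigit for ligands, measured 2.14, 1.59 and 2.28 CPM with vehicle and 3.14, 2.76 and 4.85 CPM with anti-PD1 without overlap.

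Cytotoxic effectors were higher in 12 of 15 genes (median 0.61, and 0.11 without anti-PD1 tumour 3), with 10, 0 and 13 members above all vehicle tumours in tumours 1 to 3. Gzmb, the granule protease that triggers apoptosis in targets, measured 14.9, 12.1 and 6.67 CPM with vehicle and 21.8, 12.5 and 42.9 CPM with anti-PD1 (log2 difference 1.2 ± 0.68 SE). Prf1, the pore-forming protein, measured 4.24, 3.51 and 1.89 CPM with vehicle and 6.67, 3.91 and 8.52 CPM with anti-PD1 (log2 difference 0.99 ± 0.43 SE). Tnfsf10, which encodes the death ligand TRAIL and is also made by other interferon-exposed cells, measured 82.4, 70.6 and 42.9 CPM with vehicle and 149, 62.4 and 147 CPM with anti-PD1. All 16 NK-cell receptor genes tested had higher means, and their median was 0.79, or 0.18 without anti-PD1 tumour 3. Ncr1, a receptor largely restricted to NK cells, measured 2.22, 1.88 and 1.93 CPM with vehicle and 2.38, 1.5 and 6.47 CPM with anti-PD1, so it was clearly above the vehicle range in tumour 3 alone. Il2rb, a receptor chain for interleukin 2 and interleukin 15 on T and NK cells, measured 31.2, 27.6 and 20.8 CPM with vehicle and 52, 29.7 and 81.3 CPM with anti-PD1. Klrc1, an inhibitory lectin receptor, measured 2.56, 1.4 and 1.31 CPM with vehicle and 3.44, 2.15 and 4.71 CPM with anti-PD1. In the regulatory T-cell list 9 of 12 had higher means (median 0.46, 0.15 without anti-PD1 tumour 3 and 0.72 without tumour 2). Foxp3, the factor that defines these cells, measured 4.16, 3.17 and 2.82 CPM with vehicle and 5.05, 2.99 and 10.3 CPM with anti-PD1, and Ctla4, the inhibitory receptor they carry, 3.44, 2.4 and 2.12 CPM with vehicle and 5.35, 2.26 and 9.17 CPM with anti-PD1.

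**Figure D2:**
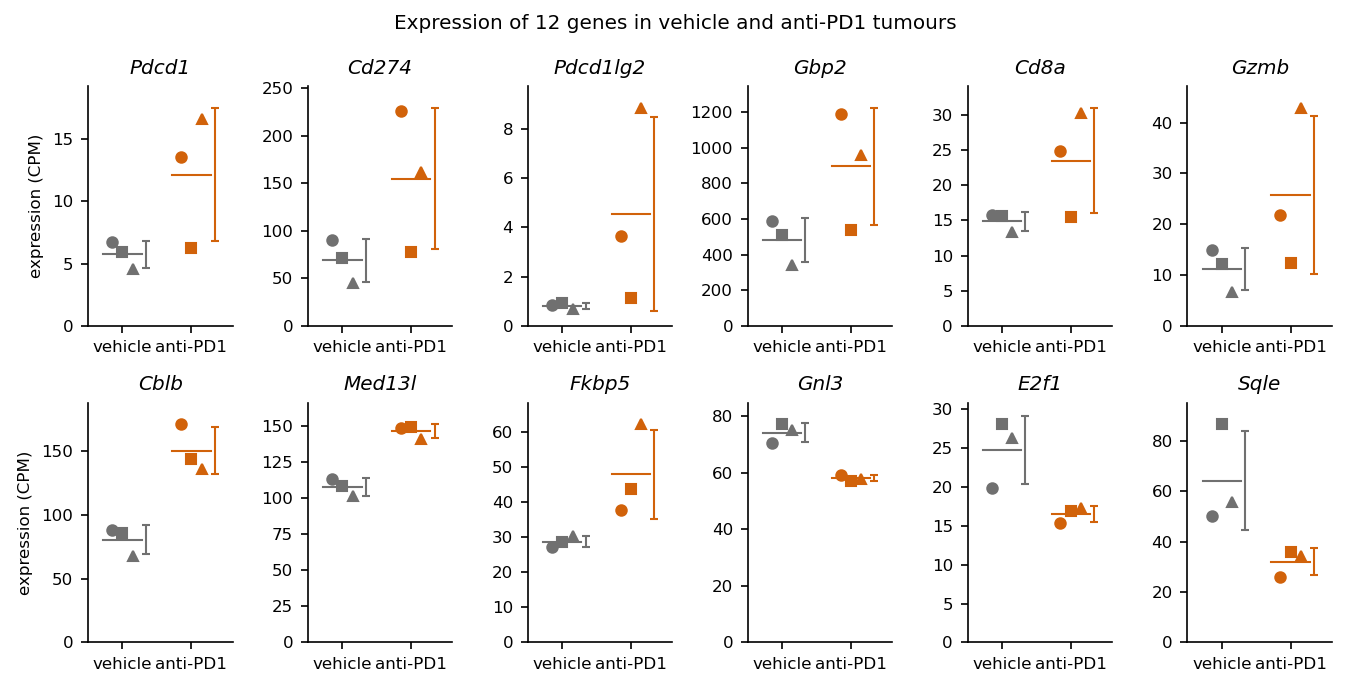
Expression in CPM of 12 genes, with circles, squares and triangles for tumours 1, 2 and 3 of each group, horizontal lines for group means and bars for 1 SD (n = 3). In the top row anti-PD1 tumours 1 and 3 are high and tumour 2 is at or near the vehicle points, while in the bottom row all 3 anti-PD1 tumours lie on one side of the vehicle tumours.

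The transactivators of antigen presentation genes were above the vehicle range in anti-PD1 tumours 1 and 3. Nlrc5, the transactivator of MHC class I genes, measured 333, 304 and 237 CPM with vehicle and 453, 303 and 462 CPM with anti-PD1 (log2 difference 0.48 ± 0.17 SE), and Ciita, the transactivator of class II genes, 121, 99.3 and 61.5 CPM with vehicle and 212, 85.7 and 214 CPM with anti-PD1 (log2 difference 0.86 ± 0.38 SE). The class I molecules themselves were abundant in every tumour. H2-K1, a class I heavy chain from a family of close copies, measured 2914, 2960.4 and 2628 CPM with vehicle and 3095, 2714 and 3374 CPM with anti-PD1 (log2 difference 0.11 ± 0.15 SE). Its partner B2m measured 2728, 2608 and 2476 CPM with vehicle and 2792, 2521 and 2948 CPM with anti-PD1 (log2 difference 0.08 ± 0.14 SE). Class I presentation genes had higher means in 17 of 18 cases, and their median was 0.20, or 0.11 without anti-PD1 tumour 3. Tap1, a subunit of the peptide transporter, measured 488, 499 and 375 CPM with vehicle and 646, 444 and 613 CPM with anti-PD1. Class II genes had higher means in 14 of 15 cases, and their median was 0.40, 0.06 without anti-PD1 tumour 3 and 0.62 without tumour 2. Rfx5, a constitutive factor at class II promoters, had groups without overlap at 70.6, 65.8 and 66.6 CPM with vehicle and 88, 76.5 and 84.3 CPM with anti-PD1 (log2 difference 0.29 ± 0.08 SE), and Ctss, the protease that trims the invariant chain, measured 330.1, 275 and 273 CPM with vehicle and 320.4, 288 and 591 CPM with anti-PD1. The list of immunoproteasome genes together with their constitutive counterparts was split at 5 higher and 5 lower. Psmb9, an induced catalytic subunit, measured 306, 294 and 243 CPM with vehicle and 378, 260.4 and 379.7 CPM with anti-PD1.

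The dendritic-cell, macrophage, B-lineage and mast-cell lists depended mainly on anti-PD1 tumour 3, while the neutrophil median turned without anti-PD1 tumour 1. Conventional dendritic-cell genes had a median of 0.47, 0.70 without anti-PD1 tumour 2 and -0.09 without tumour 3, so the direction turned. Wdfy4, needed for cross-presentation, measured 22.7, 21.8 and 20.3 CPM with vehicle and 24.8, 18.9 and 64.4 CPM with anti-PD1, and Ccl22, a chemokine of mature dendritic cells, 7.89, 8.45 and 7.52 CPM with vehicle and 13.8, 7.33 and 22.3 CPM with anti-PD1. Macrophage genes had higher means in 19 of 26 cases and a median of 0.19. The median was -0.16 without anti-PD1 tumour 3, 0.38 without tumour 1 and 0.35 without tumour 2. Without vehicle tumour 1 it was 0.33, and without vehicle tumour 2 it was 0.12. Members below all vehicle tumours numbered 11 and 9 in anti-PD1 tumours 1 and 2, against 6081 and 4769 of all 16833 genes. Adgre1, a surface marker of mouse macrophages, measured 30.7, 26.8 and 26.9 CPM with vehicle and 21.1, 25.1 and 48 CPM with anti-PD1. Mertk, a receptor for clearing dead cells, measured 5.67, 3.99 and 4.28 CPM with vehicle and 5.82, 6.98 and 16.5 CPM with anti-PD1, and Ccr2, the receptor of recruited monocytes, 13.1, 14 and 19.3 CPM with vehicle and 16.9, 13.3 and 44 CPM with anti-PD1. Igkc, the kappa light chain of antibodies, measured 5.54, 2.47 and 2.66 CPM with vehicle and 12.8, 0.998 and 41.5 CPM with anti-PD1 and Jchain, which joins secreted antibody units, 1.64, 0.406 and 1.16 CPM with vehicle and 1.87, 0.576 and 6.83 CPM with anti-PD1, and the plasma-cell median of 0.85 was 0.04 without tumour 3. B-cell genes were split at 5 higher and 4 lower of 9 (median 0.08, -0.36 without anti-PD1 tumour 3, -0.06 without vehicle tumour 1, 0.01 without vehicle tumour 2, and 0.25 and 0.27 without anti-PD1 tumours 1 and 2), with Cd22, an inhibitory receptor of B cells, at 3.65, 2.36 and 3.13 CPM with vehicle and 2.46, 2.38 and 7.12 CPM with anti-PD1, and Cd79a, a defining B-cell marker, too low to be tested. All 10 mast-cell, basophil and eosinophil genes had higher means, yet Kit, the stem cell factor receptor, measured 19.4, 16.7 and 17.9 CPM with vehicle and 17.6, 17.9 and 46.2 CPM with anti-PD1 and the median of 0.28 became -0.36 without tumour 3, 0.60 without tumour 1 and 0.46 without tumour 2. Neutrophil genes had a median of 0.35, which was -0.16 without anti-PD1 tumour 1, 0.76 without tumour 2, 0.03 without tumour 3 and 0.06 without vehicle tumour 2. S100a8, their calcium-binding protein, was near 1 CPM, at 1.26, 0.48 and 1.2 CPM with vehicle and 2.17, 0.23 and 1.22 CPM with anti-PD1.

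Chemokine genes of the Cxcr3 axis, which draws activated T cells, had a median of 0.35, 0.59 without anti-PD1 tumour 2 and -0.08 without tumour 3. Cxcl9 measured 117, 80.8 and 36.5 CPM with vehicle and 123, 60.4 and 207 CPM with anti-PD1 and Cxcl10 135, 132 and 79.2 CPM with vehicle and 97.6, 71.3 and 182 CPM with anti-PD1, and both overlapped. In tumour 1, where Gbp2 and Igtp were high, Cxcl9 was just above the vehicle range and Cxcl10 inside it. CC chemokines and receptors had higher means in 14 of 18 cases (median 0.37, 0.59 without anti-PD1 tumour 2 and -0.17 without tumour 3). Ccl4, made by activated T cells and macrophages, measured 3.06, 2.07 and 2.35 CPM with vehicle and 4.08, 2.46 and 5.07 CPM with anti-PD1. Inflammatory cytokines and neutrophil chemokines had lower means in 9 of 15 cases. The median was -0.08, 0.04 without anti-PD1 tumour 1, -0.03 without tumour 2, -0.36 without tumour 3 and -0.16 without vehicle tumour 1. Ptgs2, which encodes cyclooxygenase 2, measured 4.24, 6.5 and 4.24 CPM with vehicle and 2.67, 2.84 and 4.28 CPM with anti-PD1, and Cxcl5 12, 7.94 and 4.24 CPM with vehicle and 2.17, 3.15 and 5.86 CPM with anti-PD1.

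**Figure D3:**
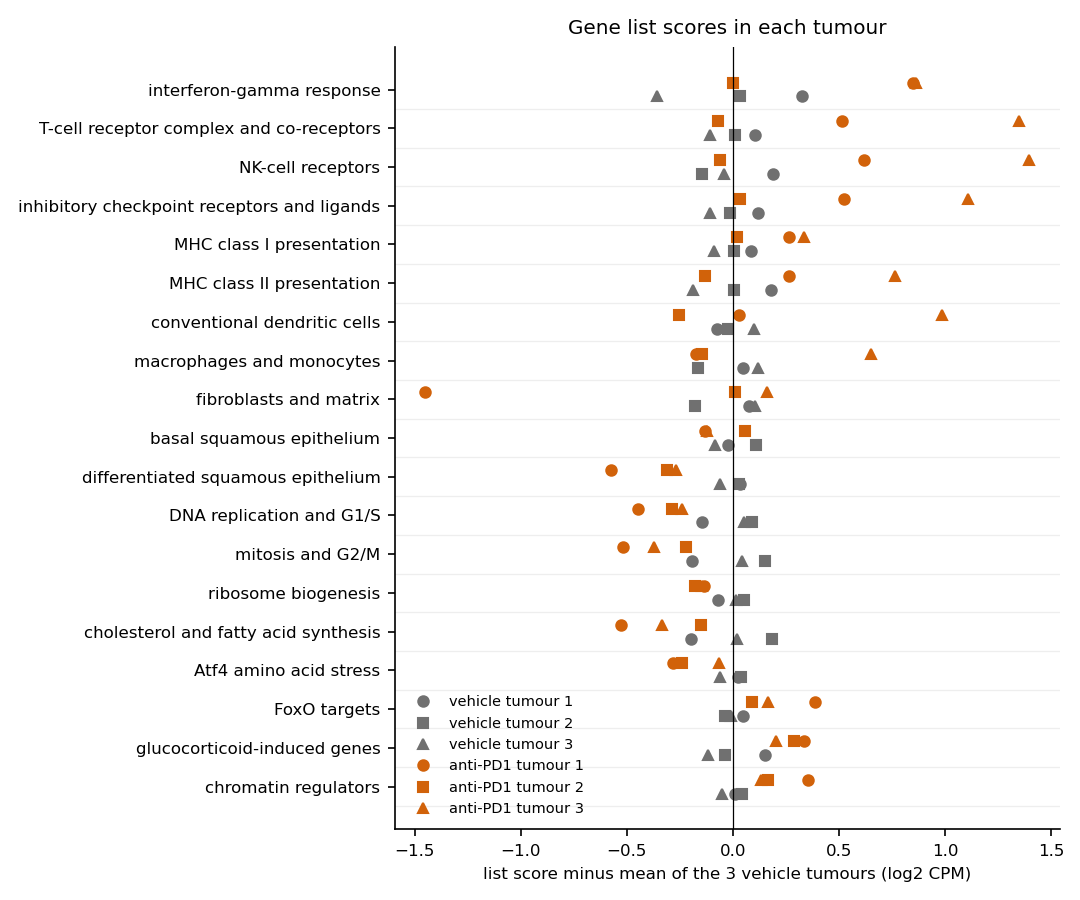
Mean log2 CPM of the members of 19 gene lists in each tumour, minus the mean of the 3 vehicle tumours. In the interferon-gamma, T-cell, NK-cell, checkpoint and MHC lists anti-PD1 tumours 1 and 3 lie to the right of all vehicle tumours. The replication, mitosis and ribosome biogenesis lists place all 3 anti-PD1 tumours to the left of the vehicle tumours, and the FoxO, glucocorticoid and chromatin lists place all 3 to their right.

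Proliferation genes had lower list scores (means of log2 CPM) in all 3 antibody tumours, tumour 2 included. Of 30 DNA replication and G1/S genes, 30 had lower means (median -0.30), and 22 had groups without overlap, against 9.2% of all genes. Of 28 mitotic genes, 28 had lower means (median -0.37), 16 without overlap. Members below all vehicle tumours in anti-PD1 tumours 1 to 3 numbered 29, 26 and 26 for replication and 26, 16 and 26 for mitosis. Over all 16833 genes these numbers were 6081, 4769 and 5453. With any 1 tumour left out, the medians stayed between -0.36 and -0.26 for replication and between -0.47 and -0.27 for mitosis. E2f1, the factor that opens S phase, measured 19.8, 28.1 and 26.3 CPM with vehicle and 15.3, 16.9 and 17.3 CPM with anti-PD1 (log2 difference -0.58 ± 0.21 SE). Mcm2, a subunit of the replicative helicase, measured 115, 133 and 118 CPM with vehicle and 91.4, 103 and 104 CPM with anti-PD1. Mcm7 of the same complex measured 111, 129 and 125 CPM with vehicle and 104, 101 and 98.2 CPM with anti-PD1. In these 3 genes every antibody tumour lay below every vehicle tumour. Ccnb2, a cyclin of mitotic entry, measured 51, 74 and 66.9 CPM with vehicle and 39.4, 46.7 and 44 CPM with anti-PD1 (log2 difference -0.56 ± 0.20 SE), and Kif23, a motor of cytokinesis, 93, 115 and 116 CPM with vehicle and 61.8, 87 and 75 CPM with anti-PD1. None of the proliferation genes passed the adjusted test. Mki67, the usual marker of cycling cells, had overlapping groups, at 295, 405 and 332 CPM with vehicle and 323, 299.6 and 321 CPM with anti-PD1 (log2 difference -0.13 ± 0.26 SE).

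Ribosome biogenesis genes were lower in 25 of 28 cases. The median was -0.18, and 16 were lower without overlap, against 9.2% of all genes. Gnl3, which encodes the nucleolar protein nucleostemin, measured 70.5, 77.1 and 74.9 CPM with vehicle and 59.1, 57.1 and 57.9 CPM with anti-PD1, with closely spaced values in both groups (log2 difference -0.35 ± 0.08 SE). Nop2, a methyltransferase of ribosomal RNA, measured 86.6, 97.7 and 99.5 CPM with vehicle and 72.8, 78.2 and 83.5 CPM with anti-PD1, and Dkc1, the dyskerin pseudouridine synthase, 82.5, 95.1 and 91 CPM with vehicle and 70.6, 78.5 and 73.4 CPM with anti-PD1. Transcripts for the proteins of the finished ribosome did not follow. Of 36, 31 had higher means with a median of 0.08, 0.03 without anti-PD1 tumour 1 and 0.15 without tumour 3. Members above all vehicle tumours numbered 28, 30 and 2 in anti-PD1 tumours 1 to 3, and in tumour 3 20 were below all of them. Rpl5 measured 1030.5, 1035 and 1082 CPM with vehicle and 1326, 1214 and 1058 CPM with anti-PD1. The Myc network was split at 7 higher and 4 lower. Mnt, a repressor that competes with Myc for Max, measured 36.4, 35.5 and 33.6 CPM with vehicle and 43.3, 45.7 and 43.1 CPM with anti-PD1 (log2 difference 0.33 ± 0.07 SE). Mga, a repressor of the same network, measured 45.1, 38.3 and 38.7 CPM with vehicle and 53, 46.5 and 47.9 CPM with anti-PD1, also without overlap. Myc itself measured 166, 206 and 182 CPM with vehicle and 165, 179.7 and 159 CPM with anti-PD1, with overlap.

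Cholesterol and fatty acid synthesis genes were lower in 17 of 20 cases. Their median was -0.34, or -0.21 without anti-PD1 tumour 1. Of the 20, 7 were lower at an unadjusted p below 0.05, against 1.91% of all genes, and 9 were lower without overlap, against 9.2%. Sqle, squalene epoxidase, measured 50.2, 86.6 and 55.7 CPM with vehicle and 26, 35.7 and 34.4 CPM with anti-PD1 (log2 difference -1.0 ± 0.32 SE). Fdft1, which joins farnesyl units into squalene, measured 37.2, 53.9 and 44 CPM with vehicle and 25, 30.6 and 29.2 CPM with anti-PD1 (log2 difference -0.67 ± 0.22 SE). Lss, which closes the sterol ring, measured 44.1, 61.2 and 51.7 CPM with vehicle and 34.9, 41.2 and 36.7 CPM with anti-PD1, and Idi1, earlier in the pathway, 17, 22.7 and 21.4 CPM with vehicle and 8.83, 15.1 and 12 CPM with anti-PD1. These 4 enzymes separated the groups, and vehicle tumour 2 held the highest value of each.

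The Atf4, repair, p53 and oxidative phosphorylation lists had medians between -0.22 and -0.07. Atf4 targets of amino acid stress were lower in 14 of 17 cases (median -0.19), with Asns, asparagine synthetase, at 126, 137 and 124 CPM with vehicle and 97.1, 105 and 104 CPM with anti-PD1 and Slc7a5, a leucine transporter, at 254, 268 and 226 CPM with vehicle and 144, 172 and 228 CPM with anti-PD1. DNA damage and repair genes were lower in 20 of 26 cases (median -0.08; -0.04 without vehicle tumour 3). In this list 11 members were lower without overlap, against 9.2% of all genes, and 2 higher without overlap, against 7.99%. Chek1, a checkpoint kinase of S phase, measured 25.1, 28.9 and 29.1 CPM with vehicle and 16.9, 19.8 and 20.8 CPM with anti-PD1, without overlap. The p53 list was lower in 15 of 21 cases (median -0.14). Trp53 itself measured 194, 202 and 206 CPM with vehicle and 154, 171 and 173 CPM with anti-PD1 (log2 difference -0.27 ± 0.10 SE), and Bax, a pro-apoptotic target, 23, 27.9 and 25.8 CPM with vehicle and 18.6, 20.8 and 22.2 CPM with anti-PD1. Nuclear-encoded oxidative phosphorylation genes were lower in 28 of 32 cases, and their median was only -0.07, or -0.12 without anti-PD1 tumour 2. Mitochondrially encoded genes were lower in 9 of 10 cases. The median was -0.22, and -0.13 without anti-PD1 tumour 1 and -0.13 without vehicle tumour 3.

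Basal squamous genes were split at 12 higher and 10 lower, with a median near 0. Differentiation genes were lower in 13 of 17 cases, and the median was -0.37, and -0.24 without vehicle tumour 2. Grhl3, a factor of terminal differentiation, measured 4.16, 5.06 and 4.05 CPM with vehicle and 2.46, 3.15 and 2.88 CPM with anti-PD1 (log2 difference -0.64 ± 0.36 SE). Krt16, a keratin of activated keratinocytes, measured 16.5, 20.4 and 18.3 CPM with vehicle and 4.25, 10.1 and 15 CPM with anti-PD1, and Sbsn, suprabasin of the upper layers, 9.53, 13.2 and 11 CPM with vehicle and 8.62, 9.4 and 7.98 CPM with anti-PD1. In each of these 3, named for their small p, every antibody tumour lay below every vehicle tumour. Of the 17 in the list, 4 were lower without overlap, against 9.2% of all genes. At an unadjusted p below 0.05, 0 of the 17 were lower, against 1.91% of all genes.

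Cblb had the smallest p of all genes. Its product, a ubiquitin ligase, limits T-cell activation in the absence of costimulation, although it is not restricted to T cells. Its values were 88.5, 85.5 and 68 CPM with vehicle and 171, 144 and 136 CPM with anti-PD1, without overlap (log2 difference 0.90 ± 0.14 SE). Anti-PD1 tumour 2, with vehicle-level T-cell genes, held 144 CPM, and tumour 3, with the highest T-cell genes, the lowest antibody value. Which cells held the Cblb transcripts was not tested. Other restraint genes in the same list were Nedd4l, a ligase best known for ion channels, at 69.1, 63.9 and 61.5 CPM with vehicle and 106, 104 and 71.2 CPM with anti-PD1, Cish, a suppressor of cytokine signals, at 58.5, 49.4 and 39.8 CPM with vehicle and 71.6, 77.6 and 101 CPM with anti-PD1, and Cbl, the closest relative of Cblb here, at 123, 123 and 112 CPM with vehicle and 149, 131 and 146 CPM with anti-PD1, all without overlap. The list of 19 had a median of only 0.09 with 5 members higher without overlap, against 7.99% of all genes. The median was 0.03 with an offset for exonic length, and with 1 tumour left out it ran from 0.05 without vehicle tumour 3 and 0.06 without anti-PD1 tumour 1 to 0.14 without vehicle tumour 1 and 0.17 without vehicle tumour 2.

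Chromatin regulators were higher in 23 of 25 cases. The median was 0.23. Of the 25, 12 had an unadjusted p below 0.05, against 3.7% of all genes, and 15 had no overlap, against 7.99%. Med13l, a subunit of the Mediator kinase module, measured 113, 108 and 101 CPM with vehicle and 149, 149 and 141 CPM with anti-PD1 (log2 difference 0.44 ± 0.08 SE), and its relative Med13 77.8, 74.9 and 75.2 CPM with vehicle and 111, 94.6 and 90.2 CPM with anti-PD1. Kmt2c, a histone H3 lysine methyltransferase of enhancers, measured 66.5, 64 and 57.4 CPM with vehicle and 121, 87.4 and 85.5 CPM with anti-PD1 (log2 difference 0.64 ± 0.14 SE). Crebbp, the acetyltransferase CBP, measured 60.7, 69.7 and 56.7 CPM with vehicle and 91.4, 73.4 and 72.9 CPM with anti-PD1. Among the 8 genes with the smallest p on the higher side were Cblb, Med13l and Mnt. The others were Rapgef6, an exchange factor for Rap GTPases, at 70.5, 67.8 and 68.8 CPM with vehicle and 98, 87.1 and 86.8 CPM with anti-PD1, Bbx, an HMG-box protein, at 82.6, 76.8 and 76.3 CPM with vehicle and 111, 101 and 98.5 CPM with anti-PD1, Wdfy2, an endosomal protein, at 60.0, 50.2 and 48.6 CPM with vehicle and 77.6, 74.4 and 79 CPM with anti-PD1, Zzef1 at 67.5, 72.6 and 63.1 CPM with vehicle and 97.1, 84.1 and 88.5 CPM with anti-PD1 and Dop1b at 25.7, 25.2 and 21.4 CPM with vehicle and 35.7, 30.7 and 36.3 CPM with anti-PD1. All 8 had groups without overlap, but they were picked by their p in these same tumours, so this is no separate support. On the lower side the smallest p belonged to Fjx1, at 40.4, 43.3 and 39.8 CPM with vehicle and 24.2, 32.6 and 28.4 CPM with anti-PD1. Beside Gnl3 the next were Shox2, a homeobox factor, at 9.82, 8.6 and 8.33 CPM with vehicle and 5.43, 5.49 and 5.0 CPM with anti-PD1, Fhl2, a LIM-domain cofactor, at 31.9, 34.4 and 31.7 CPM with vehicle and 14, 24.5 and 21 CPM with anti-PD1, and Kmt5a, a histone H4 lysine methyltransferase, at 93.9, 99.9 and 93.7 CPM with vehicle and 76.2, 80.5 and 73.6 CPM with anti-PD1. Rcn2, a calcium-binding protein of the endoplasmic reticulum, followed at 76.1, 71.9 and 74.6 CPM with vehicle and 63.3, 65.4 and 64.4 CPM with anti-PD1, and Fancb, a subunit of the Fanconi anaemia repair complex, at 8.19, 8.38 and 8.64 CPM with vehicle and 4.8, 6.14 and 5.57 CPM with anti-PD1.

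The exonic length of a gene moved with the difference. Genes whose mean log2 CPM was 1 or more were put into 10 classes of equal size by length. The median log2 difference was 0.10 in the longest class (9852 to 123179 bases of exon), where 72.2% of genes had a higher mean, and -0.02 in the shortest class, where 45.2% did. In the longest class the median deviation from the gene mean was 0.12, 0.04 and 0.0011 log2 units in anti-PD1 tumours 1 to 3 and -0.03, -0.05 and -0.07 in vehicle tumours 1 to 3. Of the 25 chromatin regulators 16 belong to that class, and their median length is 11476 bases against 4401 over these genes. Cblb has 10475 bases. Of the 26 genes that DESeq2 called higher, 18 were in the longest class. With a smooth of length as an offset in the edgeR fit, an alternative added after the values were seen, the chromatin median was 0.14 and still higher in 23 of 25, while Cblb differed by 0.82 and Med13l by 0.31.

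**Figure D4:**
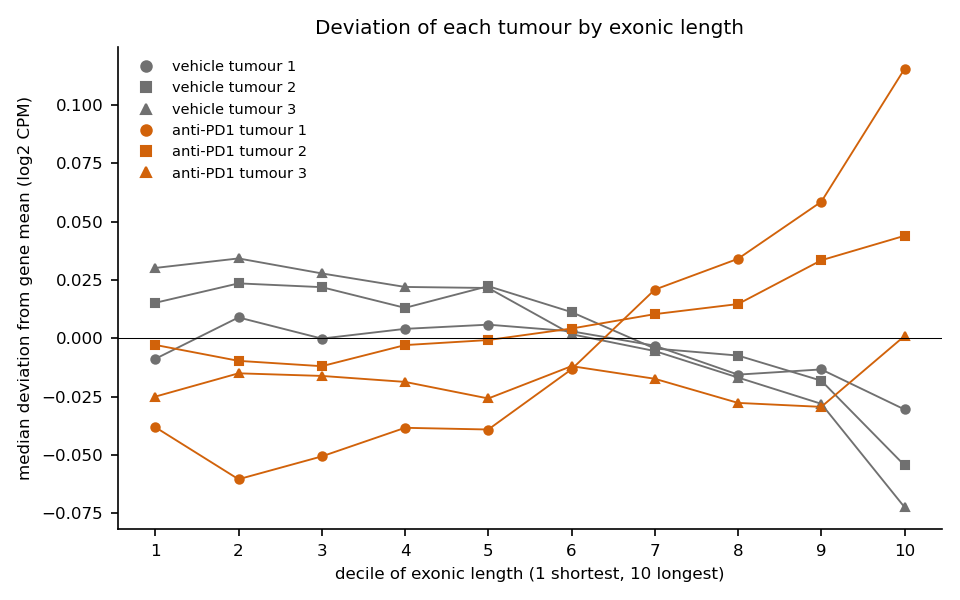
Median deviation of each tumour from the gene mean (log2 CPM, over the 6 tumours) in 10 classes of exonic length. In the longest class the vehicle tumours lie below 0 and anti-PD1 tumours 1 and 2 above it, tumour 1 furthest at 0.12, while anti-PD1 tumour 3 stays between -0.03 and 0.0011 in every class.

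Glucocorticoid-induced and FoxO list scores were higher in all 3 antibody tumours than in any vehicle tumour. Glucocorticoid-induced genes were higher in 12 of 14 cases (median 0.21). Fkbp5, the co-chaperone that damps the glucocorticoid receptor, measured 27.2, 28.6 and 30.4 CPM with vehicle and 37.8, 43.7 and 62.1 CPM with anti-PD1 (log2 difference 0.74 ± 0.21 SE), and Zbtb16, a hormone-induced zinc finger factor, 6.0, 3.51 and 3.67 CPM with vehicle and 11.2, 11.4 and 8.2 CPM with anti-PD1 (log2 difference 1.22 ± 0.39 SE). FoxO targets were higher in 15 of 18 cases (median 0.29, and 0.13 without anti-PD1 tumour 1). Pik3r1, the regulatory subunit of PI3 kinase, measured 244, 185 and 243 CPM with vehicle and 317, 322 and 263 CPM with anti-PD1 (log2 difference 0.42 ± 0.12 SE), Foxo3 170.4, 153 and 153 CPM with vehicle and 214, 205 and 180.3 CPM with anti-PD1, and Txnip, an inhibitor of glucose uptake, 1238, 956 and 1152 CPM with vehicle and 1595, 1578 and 1338 CPM with anti-PD1. Clock genes were higher in 13 of 19 cases (median 0.14, and 0.01 without anti-PD1 tumour 1), with Nr1d1, the repressor REV-ERB alpha, at 172, 223 and 196 CPM with vehicle and 289, 322 and 229 CPM with anti-PD1 and Per2 at 14.9, 18.6 and 11.5 CPM with vehicle and 23.1, 20.9 and 21.5 CPM with anti-PD1.

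Stromal differences came mostly from single tumours. Fibroblast and matrix genes had lower means in 22 of 23 cases (median -0.28), and Col1a1, the main collagen chain, measured 12583, 9807 and 12093 CPM with vehicle and 2411, 11446 and 13095 CPM with anti-PD1. All 23 were below the vehicle tumours in anti-PD1 tumour 1, and the median was 0.09 without it, -0.44 without tumour 2 and -0.57 without tumour 3. The same tumour held the highest haemoglobin transcripts, with Hbb-bs at 1.97, 1.77 and 4.86 CPM with vehicle and 27.1, 0.614 and 3.09 CPM with anti-PD1, and the red-cell median of 1.84 became -0.36 without it. Endothelial genes did not separate, with Pecam1, an adhesion protein of vessel walls, at 27, 31.2 and 34.1 CPM with vehicle and 29.5, 27.1 and 37.9 CPM with anti-PD1. Lymphatic genes had a median of -0.40, -0.16 without anti-PD1 tumour 2 and -0.72 without tumour 1. Skeletal muscle genes, which in a subcutaneous tumour can come from the body wall, were lower in 17 of 18 cases (median -0.55, and -0.25 without vehicle tumour 3), and Tnnt3, a troponin of fast fibres, measured 21, 15 and 33.4 CPM with vehicle and 16, 8.94 and 17 CPM with anti-PD1. Anti-PD1 tumour 1 combined high interferon-gamma genes with low collagen, and anti-PD1 tumour 3 high interferon-gamma genes with collagen slightly above the vehicle range. The part of stromal or muscle content in the other differences was not tested.

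The antibody was also given with SN-38, in 6 tumours that share no sample with the comparison above. There too 0 genes (0%) passed edgeR's adjusted test, with 1334 at an unadjusted p below 0.05. limma voom called 0, and DESeq2, given the same 16833 genes, called 41 higher and 9 lower. How many of them DESeq2 gave an adjusted p is not stated here, for this comparison or the interaction. Of all genes, 48.3% had a log2 difference above 0 and 51.7% one below. The interaction, which subtracts the effect of the antibody alone from its effect on top of SN-38, also had 0 calls (0%; smallest adjusted p = 0.3131 in edgeR; 1284 at an unadjusted p below 0.05), against 0 in limma voom and 4 higher and 20 lower in DESeq2. Interferon-gamma, T-cell and NK-cell lists had the same direction in both settings. The median for interferon-gamma genes was 0.76 with SN-38 and 0.60 without, that for T-cell genes 0.76 and 0.69, and that for NK-cell genes 0.75 and 0.79. With SN-38 the T-cell and NK-cell values came mainly from 1 tumour. The T-cell list score (mean log2 CPM) was 2.63, 2.6 and 2.2 in the SN-38 tumours and 2.62, 2.56 and 4.02 in the combination tumours. The NK-cell score was 0.48, 0.63 and -0.10 in the SN-38 tumours and 0.51, 0.62 and 1.99 in the combination tumours. For both lists combination tumours 1 and 2 lay inside the SN-38 range and tumour 3 above it. The interferon-gamma score was 6.72, 6.27 and 6.12 in the SN-38 tumours and 6.92, 6.81 and 7.67 in the combination tumours, without overlap. Cd274 differed by 0.93 ± 0.48 SE with SN-38 and 1.17 ± 0.48 without, and Pdcd1 by 1.24 ± 0.46 and 1.08 ± 0.46. Type I interferon genes had a median of 0.74 with SN-38, against 0.12 without. Cxcl10 differed by 1.59 ± 0.42 SE with SN-38 and 0.02 ± 0.41 without, and the difference of these effects was 1.57 ± 0.58 (adjusted p 0.633 in edgeR).

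Proliferation, cholesterol, FoxO, glucocorticoid and chromatin lists had medians of opposite sign with SN-38. The mitotic median was 0.30 with SN-38 and -0.37 without, the replication median 0.22 and -0.30, and the cholesterol median 0.11 and -0.34. The mitosis score was 5.26, 5.88 and 6.21 in the SN-38 tumours and 6.34, 6.09 and 5.99 in the combination tumours, and the replication score 4.73, 5.21 and 5.63 in the former and 5.48, 5.35 and 5.53 in the latter. SN-38 tumour 1 was the lowest for both lists, and SN-38 tumour 3 was above every combination tumour for replication. FoxO targets stood at -0.16 and 0.29, glucocorticoid-induced genes at -0.12 and 0.21, and chromatin regulators at -0.05 and 0.23. In all 6 of these lists the scores of the SN-38 and combination tumours overlapped. The longest class of exonic length, which holds 16 of the 25 chromatin regulators, also changed sign. Its median over all genes was -0.05 with SN-38 and 0.10 without. The part of length in the chromatin medians was not tested with SN-38. Cblb, at 126, 149 and 127 CPM with SN-38 and 119, 92.4 and 109.9 CPM with the combination, differed by -0.32 ± 0.13 SE, and the difference of the antibody effects was -1.22 ± 0.19 (adjusted p 0.313 in edgeR). Pik3r1, at 281, 302 and 258 CPM with SN-38 and 168, 180.1 and 172 CPM with the combination, differed by -0.69 ± 0.12 SE, and the difference of the effects was -1.11 ± 0.17 (adjusted p 0.313 in edgeR). Ccnb2 differed by 0.39 ± 0.20 SE with SN-38 and -0.56 ± 0.20 without (difference 0.95 ± 0.28, adjusted p 0.597 in edgeR). No gene of these lists passed edgeR's adjusted test of the difference, so opposite signs of the medians are a description of these 12 tumours.

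**Figure D5:**
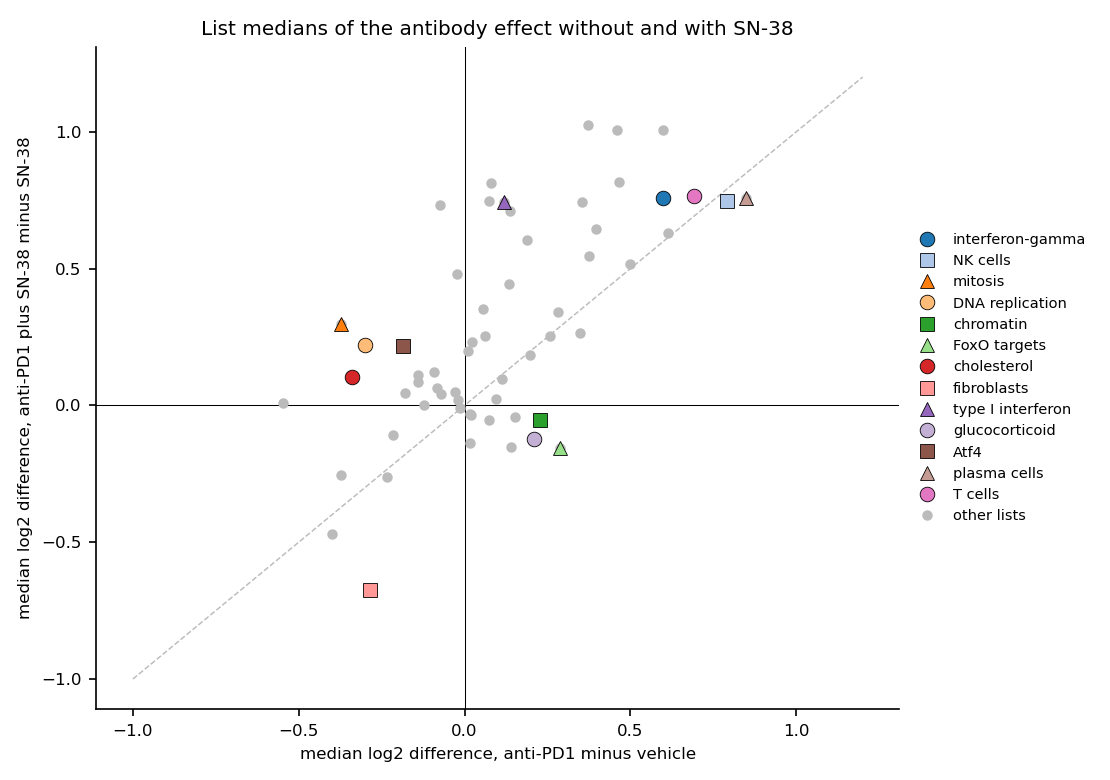
Median log2 difference of 60 gene lists for anti-PD1 minus vehicle (horizontal) and for anti-PD1 plus SN-38 minus SN-38 (vertical), with a dashed line of equal values and the red-cell list left out. Interferon, T-cell, NK-cell and plasma-cell lists lie in the upper right, mitosis, replication, cholesterol and Atf4 lists in the upper left, and chromatin, FoxO and glucocorticoid lists in the lower right.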

How the data were processed

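The authors deposited raw counts of reads per gene, 1 table for the series, and no row was a summary. Per the submitters' processing notes, cutadapt 2.4, STAR 2.7.2a and the mouse genome GRCm38 were used. Per the labels' protocols, RNA was extracted with the AllPrep DNA/RNA mini kit and libraries were made with the stranded TruSeq mRNA kit. The counting tool, strand setting and annotation are not given in the sources used here, so overlapping and antisense genes may share reads. Of 54446 gene identifiers 54409 matched the annotation, which gave symbols, positions and exonic lengths.

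From these counts, all 12 tumours were fitted together with edgeR 4.0.16 in R 4.3.3 (TMM scaling, filterByExpr, quasi-likelihood test, Benjamini-Hochberg adjustment), keeping 16833 genes. The code was tested on simulated data. Replicates of a group differed by more than counting noise (chi-square per degree of freedom of at least 11.8). Each tumour counted as 1 sample. That spread cannot tell separate mice from separate pieces or libraries of 1 mouse. With 3 tumours a group the smallest two-sided exact permutation p is 0.1, so that test was not used. Alternatives were DESeq2 1.42.0 and its size factors, limma 3.58.1 voom, no filter on low counts, a fit of only the 6 tumours, a replicate block, leaving out each tumour in turn and, added after the values were seen, an offset for exonic length.

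Gene lists and comparisons were chosen with earlier results of these data known. The named genes are the 8 with the smallest p in each direction at a mean log2 CPM of at least 1, up to 4 members of a list with the smallest p and the sign of its median, and a preset set of markers of immune, stromal and squamous cells. Of the 8 on the lower side, 1 without an assigned name is not described.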

Additional observations from a re-analysis of the deposited data

Results flagged for a closer look

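The EGF receptor family and its ligands, growth factor genes of squamous cells, had list scores on opposite sides in the 2 settings. Without SN-38 every anti-PD1 tumour lay below every vehicle tumour, with a mean log2 difference of the list score of -0.2333. With SN-38 every tumour given the antibody lay above every tumour given SN-38 alone, with a mean of 0.3707. The difference between these scores was not tested. Without SN-38, 5 of the 12 members tested had higher means and 7 lower ones. Of the 12, 0 were higher without overlap, against 7.99% of all genes, and 0 were lower without overlap, against 9.2%. The score is a plain mean over members, so a scarce gene such as Areg weighs as much as an abundant one. Nrg1, the ligand neuregulin 1, measured 64.8, 71 and 52.9 CPM with vehicle and 47.4, 48.2 and 56.6 CPM with anti-PD1, and 40.6, 36 and 68.3 CPM with SN-38 and 67.2, 119 and 82.7 CPM with the combination. Areg, the ligand amphiregulin, was near 1 CPM, at 1.18, 0.775 and 1.74 CPM with vehicle and 0.0849, 0.614 and 0.935 CPM with anti-PD1. Egfr, the receptor, measured 368, 317 and 333 CPM with vehicle and 405, 385 and 323 CPM with anti-PD1 (log2 difference 0.13 ± 0.12 SE), so its mean differed in the other direction from the list. The list median of -0.14 was 0.01 without anti-PD1 tumour 3 and -0.22 without tumour 1, and edgeR's adjusted test of the difference between settings called 0 genes.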

How the results depend on the processing

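No edgeR or limma voom alternative called a gene in the anti-PD1 comparison. DESeq2 called 26 higher and 2 lower, 50 in the comparison within SN-38 and 24 for the difference between settings. Of the genes named here, its calls against vehicle were Bbx, Cblb, Dop1b, Fjx1, Gnl3, Kmt2c, Med13, Med13l, Mnt, Rapgef6, Wdfy2 and Zzef1. At an unadjusted p below 0.05 the 943 genes became 1661 with only the 6 tumours in the fit, and 405 to 1066 with 1 tumour left out: 405 without anti-PD1 tumour 1, 445 without vehicle tumour 2 and 463 without vehicle tumour 3.

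The replicate block called 0 genes higher and 0 lower, with 953 at an unadjusted p below 0.05. Same-numbered vehicle and anti-PD1 tumours had correlations of deviations of -0.150, -0.048 and -0.021. Over all 18 same-numbered pairs across the groups, correlations ran from -0.45 to 0.60, and 4 were over 0.1. Whether tumours of the same number belong together was not settled.

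Of 125 genes named with values, 113 kept their direction under every alternative run. Leaving out 1 tumour at a time turned the direction of Adgre1 (-0.28 to 0.38, turned without anti-PD1 tumour 3), Ccr2 (-0.031 to 0.98, turned without anti-PD1 tumour 3), Cd22 (-0.33 to 0.65, turned without anti-PD1 tumour 3), Cd4 (-0.13 to 0.89, turned without anti-PD1 tumour 3), Col1a1 (-0.73 to 0.094, turned without anti-PD1 tumour 1), Cxcl10 (-0.45 to 0.27, turned without vehicle tumour 3 or anti-PD1 tumour 3), Hbb-bs (-0.63 to 2.45, turned without anti-PD1 tumour 1), Kit (-0.019 to 0.83, turned without anti-PD1 tumour 3), Mki67 (-0.23 to 0.0036, turned without vehicle tumour 2), Ncr1 (-0.055 to 1.14, turned without anti-PD1 tumour 3), Pecam1 (-0.12 to 0.13, turned without vehicle tumour 1 or anti-PD1 tumour 3) and S100a8 (-0.41 to 0.79, turned without vehicle tumour 2 or anti-PD1 tumour 1). Another setting turned Cxcl10 (-0.055 with limma voom and -0.12 with the replicate block) and S100a8 (-0.068 with limma voom). The cause was not tested. Medians of 19 of 61 lists moved by more than 1 SD of the list score when 1 tumour was left out, and those of 0 lists under the other settings.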

Other observations

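Several lists that the comparison did not lean on are given here as values. Smooth muscle and pericyte genes had lower means in 8 of 11 cases (median -0.23, -0.46 without vehicle tumour 1 and -0.07 without vehicle tumour 3), and Acta2, smooth muscle actin, measured 129, 219 and 140.1 CPM with vehicle and 96.5, 114 and 126 CPM with anti-PD1. Plasmacytoid dendritic-cell genes were higher in 8 of 11 cases (median 0.07, -0.04 without anti-PD1 tumour 3, 0.31 without tumour 2, and 0.18 and 0.14 without vehicle tumours 2 and 3), with Irf7, the factor behind their interferon production, at 451, 374 and 312 CPM with vehicle and 520.5, 308 and 599.9 CPM with anti-PD1. Complement genes were higher in 10 of 15 cases (median 0.13, -0.02 without anti-PD1 tumour 3, 0.28 without tumour 1, 0.27 without tumour 2 and 0.20 without vehicle tumour 3), and C3, the central component, measured 672, 526 and 565 CPM with vehicle and 937, 635 and 1630.0 CPM with anti-PD1. Hypoxia and glycolysis genes were split at 12 higher and 13 lower, and Slc2a1, the glucose transporter GLUT1, measured 223, 352 and 169 CPM with vehicle and 193, 196 and 165 CPM with anti-PD1. Genes of the unfolded protein response were split at 11 and 6, 4 of them higher without overlap, against 7.99% of all genes, and 2 lower without overlap, against 9.2%, and Atf6, a sensor of that response, measured 73.2, 71.7 and 63.4 CPM with vehicle and 78.8, 75.2 and 80.2 CPM with anti-PD1. Nrf2 antioxidant genes were split at 8 and 9 and Notch pathway genes at 8 and 8.

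Immediate early genes had a median of -0.02 without SN-38 and 0.48 with it, and inflammatory cytokine genes -0.08 and 0.73. Fosl1, a subunit of the transcription factor AP-1, measured 2.81, 3.84 and 3.94 CPM with vehicle and 1.1, 2.8 and 2.48 CPM with anti-PD1 without SN-38 (log2 difference -0.72 ± 0.37 SE), and differed by 0.96 ± 0.37 SE with it. Ptgs2 differed by -0.61 ± 0.67 SE without SN-38 and 1.12 ± 0.66 SE with it, and the difference of these effects was 1.73 ± 0.94 (adjusted p 0.686 in edgeR).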
